A study of Mus musculus with 3 samples.

Results

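GABA subcluster 13 is a group of nuclei from dissected mouse lateral septum whose marker genes are those of striatal medium spiny neurons. Its members here are the 50 genes that the authors list for it in their table of markers of GABA neurons, out of 1100 rows for 22 subclusters. The genes were selected by the authors on these same nuclei, so their values describe the subcluster and no test was made. Broad cluster 14, with 50 genes of its own in the table of all nuclei, is read as the same population and serves as a check against glia and excitatory neurons.

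The nuclei came from 8 naive male C57BL/6J littermates aged 3 months, and the labels name no treatment or comparison group. Punches 500 µm wide were taken from sections 200 µm thick through the lateral septum, pooled, sorted as nuclei and made into 3 libraries of nuclear RNA, which form 1 group. The labels' protocols name the striatum among the neighbouring structures that may have been partly included. The tables hold no values per library, no numbers of nuclei and no depths, so no value has a replicate error and none could be compared between mice, and how much of any detection came from free RNA was not tested.

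Medium spiny neurons are the GABAergic projection neurons that make up most of the striatum. They receive glutamate from cortex and thalamus and dopamine from the midbrain, and dopamine acts in them through cyclic AMP and the phosphatase inhibitor encoded by Ppp1r1b. Neurons of the direct pathway typically express the dopamine receptor gene Drd1 with the peptide precursors Tac1 and Pdyn, and neurons of the indirect pathway typically express the dopamine receptor gene Drd2 with the adenosine receptor gene Adora2a and the enkephalin precursor Penk.

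Of 26 genes known for medium spiny neurons in general, 9 were listed for subcluster 13 and at most 2 for any other GABA subcluster. The 9 were Ppp1r1b, Scn4b, Rgs9, Pde1b, Foxp1, Rarb, Gng7, Pde7b and Cacna2d3, with a median log2 fold change of 3.74 in the authors' deposited table, where all 50 genes had a median of 3.41 and all rows of the GABA table one of 1.67. Of the others, Arpp21, Ptpn5 and Meis2 were among those listed for other GABA subclusters only, and 13, among them Pde10a, Bcl11b and Adcy5, for none. Each list holds the authors' first 50 genes, so a gene without an entry may be higher or lower there all the same. Of the 11 markers of lateral septal GABAergic neurons and the 13 of interneurons, 0 were listed for subcluster 13. The same held for the lists of cholinergic, excitatory, oligodendrocyte, precursor, microglial and vascular or ependymal markers. No gene of these lists was listed for any GABA subcluster, so those counts do not set subcluster 13 apart. From the list of 10 astrocyte markers, 1 gene was listed, the bicarbonate transporter gene Slc4a4, and the part of astrocyte RNA in its value was not tested. Of the lateral septal and interneuron genes, 7 and 10 were listed for some GABA subcluster, up to 3 and 6 for a single one. Several other GABA subclusters also listed none of them, so these counts do not set subcluster 13 apart either. The name medium spiny-like rests on the count of medium spiny genes. The genes of all lists were picked with earlier results of these data known.

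The 50 genes combined large fold changes with low detection outside. The log2 fold change sets mean level in the subcluster against that in all other GABA nuclei, and detection is the percentage of nuclei in which a gene was seen. Among them 42 reached 2 or more on the log2 scale (38.5% of all rows of the GABA table), and 16 reached 4 or more (8.27% of all rows). Detection outside the subcluster was under 5% for 23 of 50 (26.9% of all rows). Detection inside was at least 25% for 35 of 50 (66.6% of all rows), so about the table's own share. Of the 50, 34 were listed for subcluster 13 and no other GABA subcluster (40.6% of all rows), which was the highest such number of the 22 subclusters. Its median log2 fold change of 3.41 ranked 3 of 22, behind 3.93 for subcluster 19 and 3.45 for subcluster 17. The plot of detection inside and outside shows each gene.

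**Figure D1:**
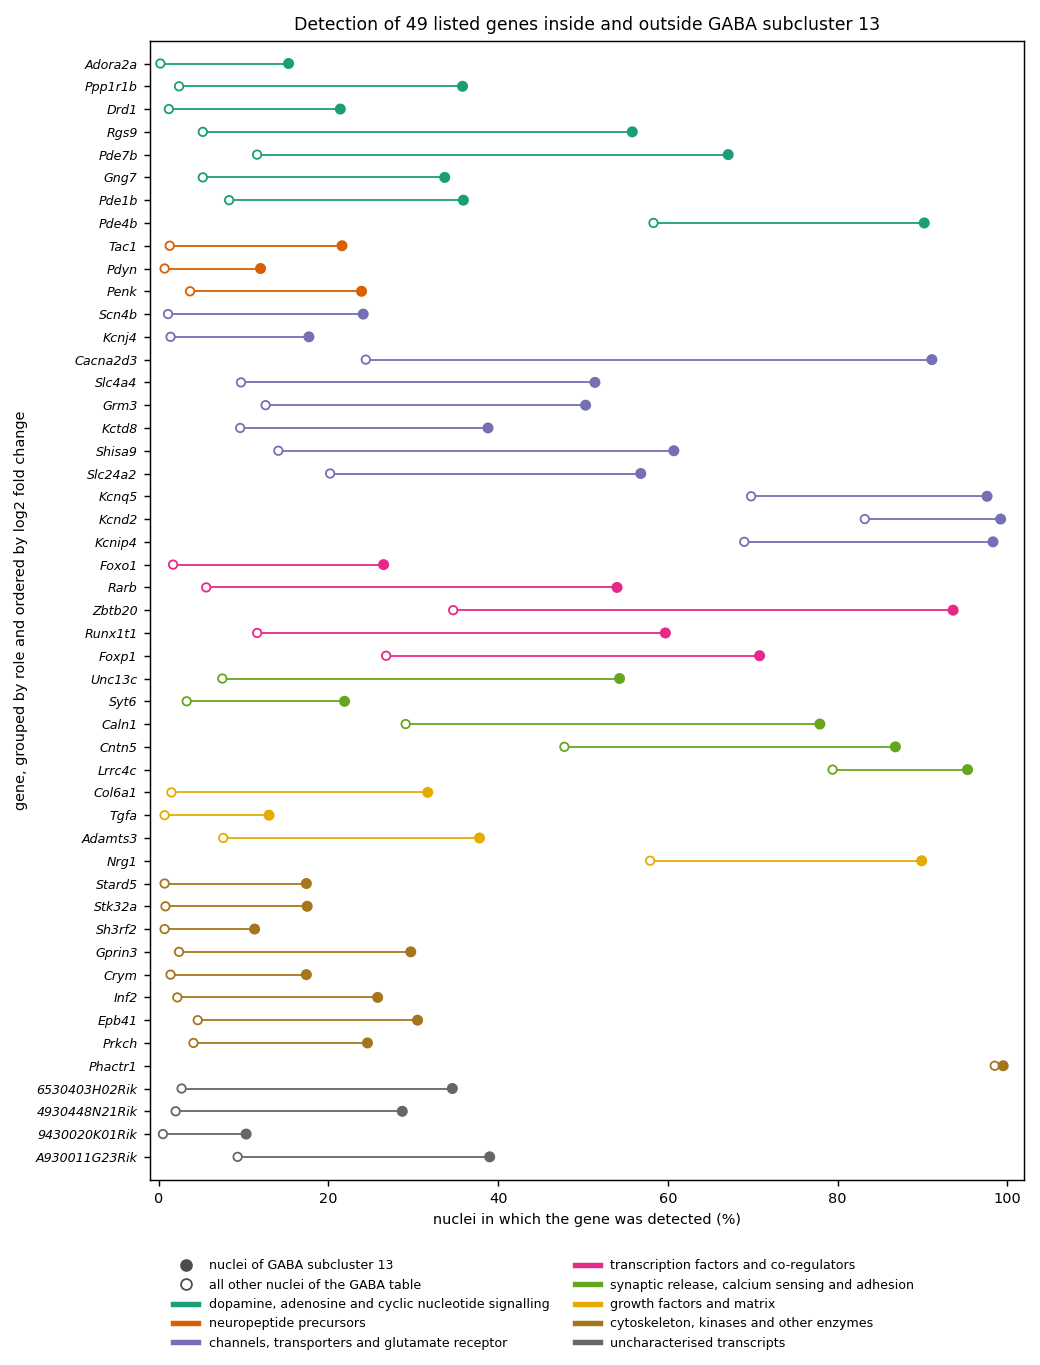
Percentage of nuclei in which each of 49 genes was detected, in GABA subcluster 13 (filled) and in all other nuclei of the GABA table (open); colours mark role groups and genes run from high to low log2 fold change within a group. Inside detection runs from 10.3% (9430020K01Rik) to 99.5% (Phactr1), and each gene is higher inside than outside.

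The receptor end of the dopamine and adenosine pathway gave the largest fold change of the list. Adora2a, which encodes the adenosine receptor of indirect pathway neurons, was detected in 15.3% of subcluster 13 nuclei and 0.2% of other GABA nuclei, with a log2 fold change of 6.46, in the authors' deposited table. Drd1 was detected in 21.4% of subcluster 13 nuclei and 1.2% of other GABA nuclei, with a log2 fold change of 4.39, in the authors' deposited table. Typical receptors of both striatal pathways were thus listed together, while Drd2 was listed for 0 GABA subclusters. Of 8 direct pathway genes, 3 were listed, which were Drd1, Tac1 and Pdyn, and the rest were listed for no GABA subcluster. Of 8 indirect pathway genes, 2 were listed, which were Adora2a and Penk. Of the rest, Sema3e was listed for another GABA subcluster only, and Gpr6, Sp9, Gpr52 and Grik3, like Drd2, for none.

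Downstream of these receptors, Ppp1r1b was detected in 35.8% of subcluster 13 nuclei and 2.4% of other GABA nuclei (log2 fold change 4.66) in the authors' deposited table. Rgs9, which speeds the shutdown of G protein signals, was found in 55.8% inside and 5.2% outside (4.36) in the authors' deposited table, the highest inside detection of the group among genes detected in under 10% outside. Gng7, a G protein γ subunit that pairs with the striatal stimulatory α subunit, reached 33.7% inside and 5.2% outside (3.18) in the authors' deposited table. The 3 cyclic nucleotide phosphodiesterases, which end the cyclic AMP signal, spanned a wide range of outside levels. Pde7b was at 67.1% inside and 11.6% outside (log2 fold change 3.74), Pde1b at 35.9% and 8.3% (2.73), and Pde4b at 90.2% and 58.3% (1.82) in the authors' deposited table. Of 25 genes of dopamine and cyclic AMP signalling 5 were listed, while 8 were listed for some GABA subcluster and at most 1 for any other single one. Of 16 phosphodiesterase genes 3 were listed, while 10 were listed for some GABA subcluster and up to 2 for another single one. All 8 genes of this role group were listed for subcluster 13 and no other GABA subcluster, against 34 of all 50 and 40.6% of the table's rows.

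Precursors of 3 neuropeptides were listed. Tac1, the precursor of substance P, was detected in 21.6% of subcluster 13 nuclei and 1.3% of other GABA nuclei (log2 fold change 4.58) in the authors' deposited table. Pdyn, the dynorphin precursor named in the study's title, was at 12% inside and 0.7% outside (4.43) in the authors' deposited table. Penk was at 23.9% inside and 3.7% outside (3.58) in the authors' deposited table, and was the one precursor of the 3 that other GABA subclusters listed too. These were subcluster 12, with Penk in 19.3% of its nuclei against 3.7% outside (2.53), and subcluster 3, with 9.5% against 3.8% (1.36), in the authors' deposited table. Among 13 opioid and tachykinin genes, the 3 precursors were the members listed for subcluster 13, and no opioid or tachykinin receptor gene was among its 50. Of these 13 genes, 9 were listed for some GABA subcluster and up to 2 for another single one.

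Without values per nucleus, the overlap of 2 genes has only limits. Drd1 and Adora2a could have been detected together in at most 15.3% of subcluster 13 nuclei and in as few as 0%, and either of them in 21.4% to 36.7%. For Tac1 and Penk the nuclei with both lay between 0% and 21.6%, and those with either between 23.9% and 45.5%. The tables therefore do not show whether direct and indirect pathway genes were in the same or in separate nuclei.

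Drd1, Pdyn and Tac1 are direct pathway genes that were listed together and for no other GABA or broad cluster, and their promoters are shown for that reason, as RefSeq gives them on GRCm38.p6. Each run reads 5′ to 3′ on the gene's strand, from 250 bases before the start site to 50 after it. The windows are chr13:54055609-54055908 (minus strand) for Drd1, chr2:129699889-129700188 (minus strand) for Pdyn and chr6:7554811-7555110 (plus strand) for Tac1. Capitals mark matches on either strand to the cyclic AMP response element core TGACG, the forkhead motif TGTTTAC, the nuclear receptor motif AGGTCA, the TATA box TATAAA and the GC box GGGCGG.
Drd1: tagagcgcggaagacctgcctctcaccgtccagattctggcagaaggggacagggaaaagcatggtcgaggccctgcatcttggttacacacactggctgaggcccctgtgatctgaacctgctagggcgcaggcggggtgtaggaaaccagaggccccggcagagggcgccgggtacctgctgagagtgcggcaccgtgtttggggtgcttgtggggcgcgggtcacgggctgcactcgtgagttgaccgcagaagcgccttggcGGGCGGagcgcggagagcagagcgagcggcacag
Pdyn: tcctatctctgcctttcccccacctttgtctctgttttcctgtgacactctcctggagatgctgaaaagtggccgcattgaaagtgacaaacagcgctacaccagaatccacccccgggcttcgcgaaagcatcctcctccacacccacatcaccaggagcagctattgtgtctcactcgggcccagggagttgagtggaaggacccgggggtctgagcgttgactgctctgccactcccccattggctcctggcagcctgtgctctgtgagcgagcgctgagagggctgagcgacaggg
Tac1: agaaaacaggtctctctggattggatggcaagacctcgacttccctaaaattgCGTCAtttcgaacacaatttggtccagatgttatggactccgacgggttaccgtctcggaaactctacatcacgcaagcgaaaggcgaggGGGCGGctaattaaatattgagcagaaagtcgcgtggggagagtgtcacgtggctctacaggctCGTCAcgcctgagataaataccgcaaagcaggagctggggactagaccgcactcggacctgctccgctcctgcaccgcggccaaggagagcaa
In Tac1 the cyclic AMP response element core was found at -197 and -43 relative to the start site, both as its reverse complement on the strand shown, and the GC box at -107. Drd1 had a GC box at +17, and Pdyn had 0 of the 5 motifs in this window. The last bases of the window were found in the gene's own GENCODE transcripts for Drd1 and Tac1, but not for Pdyn. The Pdyn window lies wholly upstream of the gene in GENCODE (chr2:129686565-129699844), so its value describes the RefSeq window alone. The GENCODE genes of Tac1 and Drd1 begin inside their windows, at chr6:7554879 and chr13:54055705, upstream of the RefSeq start site. Positions are thus relative to the RefSeq start site alone, and the Tac1 matches at -43 and -107 lie inside the GENCODE gene. Over the 36 members with a window in the promoter table, the cyclic AMP response element core was in 19.4%, against 20.9% of all 27025 gene promoters, and the GC box in 58.3%, against 35.9%. The forkhead motif was in 5.56% of members and 3.52% of all, the nuclear receptor motif in 8.33% and 16.0%, and the TATA box in 5.56% and 14.2%. Matching letters are a description and do not mark a bound site.

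The 11 genes for channels, transporters and receptors or their partners had a median log2 fold change of 2.59. Scn4b, a sodium channel β subunit, led them at 24.1% of subcluster 13 nuclei and 1.1% of other GABA nuclei (5.12) in the authors' deposited table. Kcnj4, an inward rectifier potassium channel, followed with 17.7% inside and 1.4% outside (3.90) in the authors' deposited table. Cacna2d3, a calcium channel α2δ subunit, had the largest detection difference of all 50 genes, 91.1% inside and 24.4% outside (3.63), in the authors' deposited table. Kcnd2, the pore subunit of A-type potassium channels, and Kcnip4, one of its auxiliary proteins, were detected in 99.2% and 98.3% of subcluster 13 nuclei, against 83.2% and 69.0% of other GABA nuclei, in the authors' deposited table. Kcnq5, a channel of the muscarine-sensitive potassium current, was at 97.6% inside and 69.8% outside in the authors' deposited table. The log2 fold changes of Kcnd2, Kcnip4 and Kcnq5 were 1.64, 1.32 and 1.84, among the 8 of the list that were under 2.

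Partners of neurotransmitter receptors were also present. Shisa9, an auxiliary protein of AMPA-type glutamate receptors, was detected in 60.7% of subcluster 13 nuclei and 14.1% of other GABA nuclei (log2 fold change 2.56) in the authors' deposited table. The metabotropic glutamate receptor gene Grm3 was at 50.3% inside and 12.6% outside (2.77), and Kctd8, an auxiliary protein of GABA-B receptors, at 38.8% and 9.6% (2.59), in the authors' deposited table. The transporters were Slc4a4, with 51.4% inside and 9.7% outside (3.25), and the sodium, calcium and potassium exchanger gene Slc24a2, with 56.8% and 20.2% (2.12), in the authors' deposited table. Among 57 voltage-gated channel genes and related subunits 6 were listed, while 18 were listed for some GABA subcluster and up to 3 for another single one. Among 38 glutamate, GABA and acetylcholine receptor genes 1 was listed, while 16 were listed for some GABA subcluster and up to 5 for another single one.

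Genes for transcription factors or co-regulators numbered 5, with log2 fold changes from 2.55 upward and detection in at least 26.5% of subcluster 13 nuclei. Foxo1, a forkhead factor controlled by insulin signalling, was at 26.5% inside and 1.7% outside (4.36) in the authors' deposited table. Rarb, a retinoic acid receptor known for its part in striatal development, was at 54.0% inside and 5.6% outside (3.84) in the authors' deposited table. Zbtb20, a zinc finger repressor, was at 93.6% inside and 34.7% outside (3.13), and the co-repressor Runx1t1 at 59.7% and 11.6% (3.02), in the authors' deposited table. Foxp1, a forkhead factor of medium spiny neurons, reached 70.8% inside and 26.8% outside (2.55) in the authors' deposited table. Of the 30 striatal transcription factor genes, Foxp1 and Rarb were the 2 listed, and 6 others were listed for other GABA subclusters only, up to 2 for a single one, as many as for subcluster 13. Foxo1 and Foxp1 were the members of this group that no other GABA subcluster listed.

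Genes of synaptic release and adhesion had lower fold changes. Unc13c, which primes synaptic vesicles, was detected in 54.3% of subcluster 13 nuclei and 7.5% of other GABA nuclei (3.75) in the authors' deposited table. Syt6, a synaptotagmin, was at 21.9% inside and 3.3% outside (2.97), and the calcium sensor gene Caln1 at 77.9% and 29.1% (2.51), in the authors' deposited table. The adhesion genes Cntn5 and Lrrc4c were at 86.8% and 95.3% inside, against 47.8% and 79.4% outside, with log2 fold changes of 1.85 and 1.57, in the authors' deposited table. Of 50 adhesion and guidance genes these 2 were listed, while 31 were listed for some GABA subcluster and up to 7 for a single one.

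Secreted factors and matrix genes numbered 4. Col6a1, a chain of collagen VI, ranked 3 of 50 by log2 fold change, with 31.7% inside and 1.5% outside (4.77), in the authors' deposited table. Tgfa, a ligand of the epidermal growth factor receptor, was at 13% inside and 0.7% outside (4.18) in the authors' deposited table. Adamts3, a secreted protease, was at 37.8% inside and 7.6% outside (2.69), and the ErbB ligand gene Nrg1 at 89.9% and 57.9% (1.68), in the authors' deposited table.

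The 10 genes for enzymes and cytoskeletal proteins had a median log2 fold change of 3.92, and 9 of them were listed for no other GABA subcluster. Stard5, a lipid transfer protein, was at 17.4% inside and 0.7% outside (4.67), and the kinase gene Stk32a at 17.5% and 0.8% (4.61), in the authors' deposited table. Sh3rf2, Gprin3, Crym and the formin gene Inf2 had log2 fold changes of 4.27, 3.96, 3.96 and 3.87 in the authors' deposited table, with inside detection of 11.3%, 29.7%, 17.4% and 25.8%. Epb41, which links membrane and cytoskeleton, was at 3.04 and the protein kinase C gene Prkch at 2.99 in the authors' deposited table. Phactr1, a regulator of actin and protein phosphatase 1, had the lowest log2 fold change of the list, 1.03, with 99.5% inside and 98.5% outside in the authors' deposited table. The 4 uncharacterised transcripts were 6530403H02Rik (4.62), 4930448N21Rik (4.32), 9430020K01Rik (4.23) and A930011G23Rik (2.48) in the authors' deposited table, and 6530403H02Rik is annotated as a lincRNA.

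The authors' fold changes followed the detection values closely. If molecules were spread over nuclei at random, detection inside and outside would imply a ratio of mean levels, and the log2 fold change lay within 0.5 of that ratio for 43 of 50 genes, with a median excess of 0.22. The largest excess was 0.72 for Penk. The 5 largest fold changes belonged to genes detected in at most 35.8% of subcluster 13 nuclei, while the 5 smallest, of Phactr1, Kcnip4, Lrrc4c, Kcnd2 and Nrg1, belonged to genes detected in at least 89.9%. Of the 10 genes of largest log2 fold change, 0 were among the 10 of largest detection difference, which were Cacna2d3, Zbtb20, Pde7b, Rgs9, Caln1, Rarb, Runx1t1, Unc13c, Shisa9 and Foxp1.

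Detection also moved with the length of the gene. Spans were taken from GENCODE M21 (GRCm38, which is mm10), and one was found for 47 of 50 genes, with a median of 151.9 kb, against 154.4 kb for the genes of the whole GABA table. The 14 such genes detected in under 25% of subcluster 13 nuclei had a median span of 19.5 kb, and the 33 detected in at least 25% one of 286.8 kb. All 8 genes with a log2 fold change under 2 were long, with a median of 816.5 kb. The medium spiny genes lay at both ends of this range. Among short ones, Drd1 spans 4.5 kb (chr13:54051183-54055705), Penk 5.3 kb (chr4:4133531-4138819), Ppp1r1b 9.4 kb (chr11:98348404-98357796), Tac1 11 kb (chr6:7554879-7565834), Scn4b 15.8 kb (chr9:45138395-45154152) and Adora2a 17.9 kb (chr10:75316877-75334784). Among long ones, Cacna2d3 spans 816.9 kb, Foxp1 597.4 kb, Rarb 388.3 kb and Pde7b 327.1 kb, with Rgs9 at 72.8 kb and Gng7 at 66.3 kb between. Nuclear RNA holds introns, so a low detection of a short gene is not directly comparable with a high detection of a long one, and the part of gene length in these values was not tested.

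**Figure D2:**
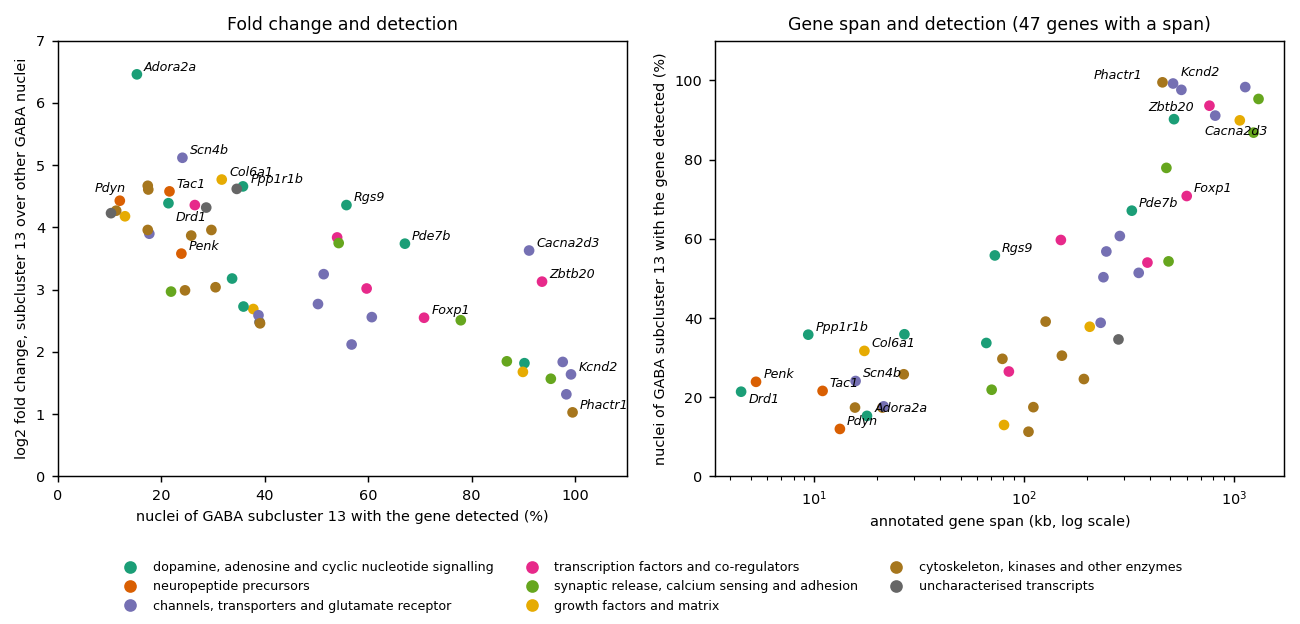
Left, log2 fold change of GABA subcluster 13 over other GABA nuclei against the percentage of subcluster 13 nuclei with the gene detected, for 50 genes. Right, that percentage against annotated gene span on a log scale for 47 genes; genes detected in under 25% had a median span of 19.5 kb and the others one of 286.8 kb.

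Subcluster 13 was a small subcluster. The number of nuclei is not given, but the detection of a gene over all GABA nuclei must come out the same from each subcluster that lists it, which fixes the shares. By least squares over 258 such genes, subcluster 13 held 2.78% of GABA nuclei (standard error of the solution 0.0258 points), rank 14 of 22 by size. Broad cluster 14 held 2.06% of all nuclei by the same method over 286 genes (0.0286 points). If both clusters held the same nuclei, the nuclei of the GABA table would be 74.2% of all nuclei. These errors cover the rounding and the solution, not differences between mice or libraries.

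With these shares, a gene's detected nuclei can be divided between the subcluster and the rest. Subcluster 13 held 68.6% of the GABA nuclei with detected Adora2a (63.5% to 74.5% from rounding of the detection values), although Adora2a was detected in only 0.619% of GABA nuclei. It held 38.5% of those with Scn4b (37.4% to 39.6%), 33.7% of those with Drd1 (32.8% to 34.7%) and 32.2% of those with Tac1 (31.3% to 33.1%). For Ppp1r1b the part was 29.9% and for Penk 15.6%. Among GABA nuclei, genes outside the classical set reached similar values. The subcluster held 41.5% of the GABA nuclei with Stard5, 38.4% of those with Stk32a, 37.6% of those with Col6a1 and 34.6% of those with Tgfa. Over all 50 genes the median was 15.6%, 19 genes were above 25% and 8 were below 5%, down to 2.80% for Phactr1, close to the share of the subcluster itself. Adora2a was the only gene of the 50 with most of its detected GABA nuclei in subcluster 13; the remaining nuclei of the other genes lay in the other subclusters, and how many of these held free RNA was not tested.

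**Figure D3:**
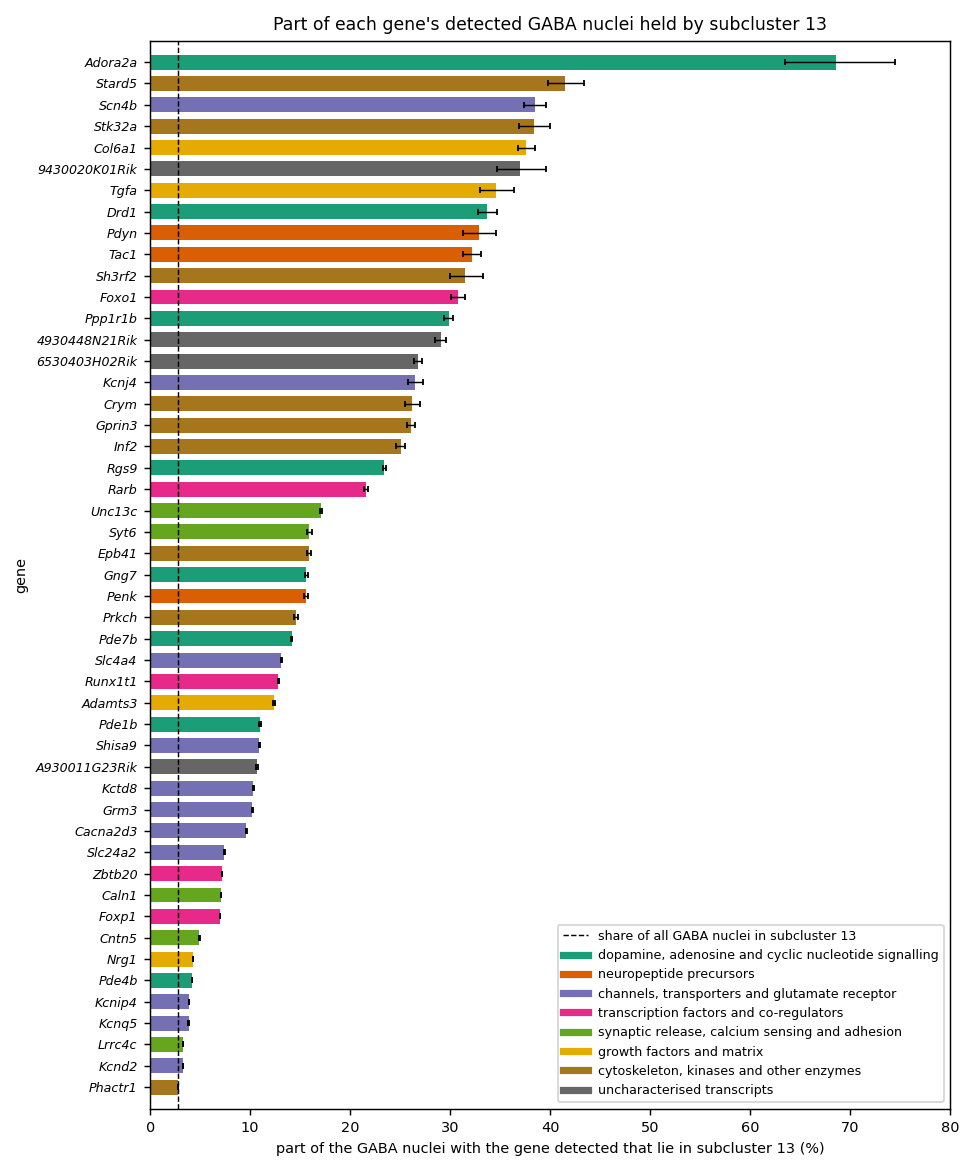
Part of the GABA nuclei with each gene detected that lie in subcluster 13, in percent, for 49 genes; error bars give the range allowed by rounding of the detection values, and the dashed line marks the subcluster's own share of 2.78%. Adora2a is at 68.6%, Stard5 at 41.5%, and Phactr1 is at the line.

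Of the 50 genes, 16 were listed for other GABA subclusters as well, in 32 listings over 15 subclusters. For 12 of the 16 the log2 fold change was larger in subcluster 13 than in each other subcluster that listed the gene, the exceptions being Cntn5, Kcnip4, Kctd8 and Syt6. Of the 16 genes at 4 or more on the log2 scale, 0 were listed for another GABA subcluster. However, 5 of these genes were listed for a broad cluster other than 14. For all 91 rows at 4 or more no such share was computed, so the count of 0 is a description only. The subcluster that shared most genes was 14, with Cacna2d3, Kctd8, Runx1t1, Kcnip4 and Lrrc4c. Cacna2d3 was detected in 91.1% of subcluster 13 nuclei (log2 fold change 3.63) and 46.3% of subcluster 14 nuclei (1.34), and Runx1t1 in 59.7% (3.02) and 34.6% (1.78), in the authors' deposited table. Kctd8 was near equal, with 38.8% in subcluster 13 (2.59) and 34.3% in subcluster 14 (2.67) in the authors' deposited table. Subcluster 3 shared Penk, Cntn5, Adamts3 and A930011G23Rik, where Adamts3 was at 37.8% in subcluster 13 and 17.3% in subcluster 3 and Cntn5 at 86.8% and 85.7% in the authors' deposited table. Subcluster 18 also shared 4 genes. Rarb was shared with subcluster 16 alone, at 54.0% in subcluster 13 and 28.5% in subcluster 16, and Zbtb20 with subcluster 20 alone, at 93.6% and 92.6%, in the authors' deposited table.

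Against all nuclei, 43 of the 50 genes were listed again for broad cluster 14. Over all 22 GABA subclusters, between 10 and 49 genes were shared with the best matching broad cluster, with a median of 29.5. Detection inside differed between subcluster 13 and broad cluster 14 by -0.5 to 0.9 percentage points over the 43 genes. The log2 fold change differed by -0.21 to 1.66, with a median of 0.23, and was larger in broad cluster 14 for 5 genes, which were Penk, Phactr1, Pdyn, Scn4b and Prkch. Outside detection moved more, by -6.9 to 1.2 points. Col6a1 had a log2 fold change of 4.77 in subcluster 13 and 3.16 in broad cluster 14, 6530403H02Rik 4.62 and 2.96, and Slc4a4 3.25 and 2.15, in the authors' deposited table. In contrast Drd1 had 4.39 and 4.36, Tac1 4.58 and 4.57, and Ppp1r1b 4.66 and 4.60 in the authors' deposited table. Outside detection of Zbtb20 was 34.7% among other GABA nuclei and 41.6% among all other nuclei in the authors' deposited table, the largest shift of the 43.

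**Figure D4:**
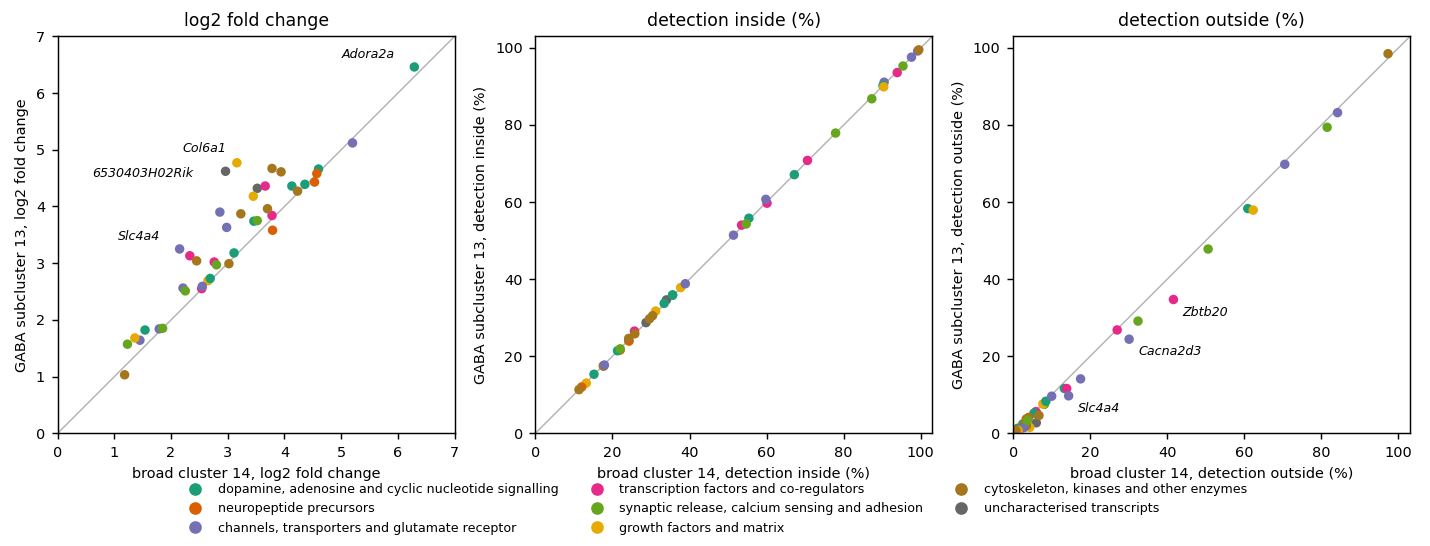
GABA subcluster 13 (y axis) against broad cluster 14 (x axis) for the 43 genes listed for both: log2 fold change, percentage of nuclei with the gene detected inside, and the same outside; the grey line marks equality. Inside detection lies on the line within 0.9 points, while Col6a1, 6530403H02Rik and Slc4a4 lie above it in fold change.

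Several of the 50 genes were listed for non-GABA clusters, among them the shifted genes Zbtb20, Slc4a4 and 6530403H02Rik. Grm3 and Slc24a2 were not listed for broad cluster 14, so no shift could be given for them. Broad cluster 8, which listed 6 of 10 astrocyte markers and is called astrocyte-like, listed Slc4a4 (3.46, 74.4% of its nuclei), Zbtb20 (2.05, 92.3%) and Grm3 (2.43, 70.0%) in the authors' deposited table. Oligodendrocyte-like cluster 9, with 8 of 8 markers, listed Slc24a2 (2.64, 89.0%) and Pde4b (2.17, 96.8%) in the authors' deposited table. Precursor-like cluster 20, with 7 of 7 markers, listed Stk32a (4.35, 20.2%), a larger value than the 3.94 of broad cluster 14, in the authors' deposited table. Cortical excitatory-like cluster 17, with 3 of 9 markers, shared 9 genes, the most of any broad cluster apart from 14, among them Cacna2d3, Kcnj4 and 4930448N21Rik. In cluster 23, likewise with 3 of 9 excitatory markers, Stard5 (4.32, 27.3%) and 6530403H02Rik (4.08, 60.9%) had larger values than in broad cluster 14 (3.78 and 2.96) in the authors' deposited table. Col6a1 was also listed for cluster 7 (3.97, 41.0%) in the authors' deposited table. In all, 27 of the 50 genes were listed for a broad cluster other than 14, 13 of them genes that no other GABA subcluster listed. Of the 43 genes listed for broad cluster 14 as well, 20 were listed for no other broad cluster (43.8% of all rows of the broad table), so about the table's own share. Listed for no other GABA or broad cluster were 21 genes, among them Adora2a, Drd1, Tac1, Pdyn, Ppp1r1b, Rgs9, Scn4b, Gng7, Pde1b, Pde7b, Foxo1, Unc13c, Gprin3, Crym and Tgfa. For the counts of 27, 13 and 21 no share over all rows was computed, so they are a description only.

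**Figure D5:**
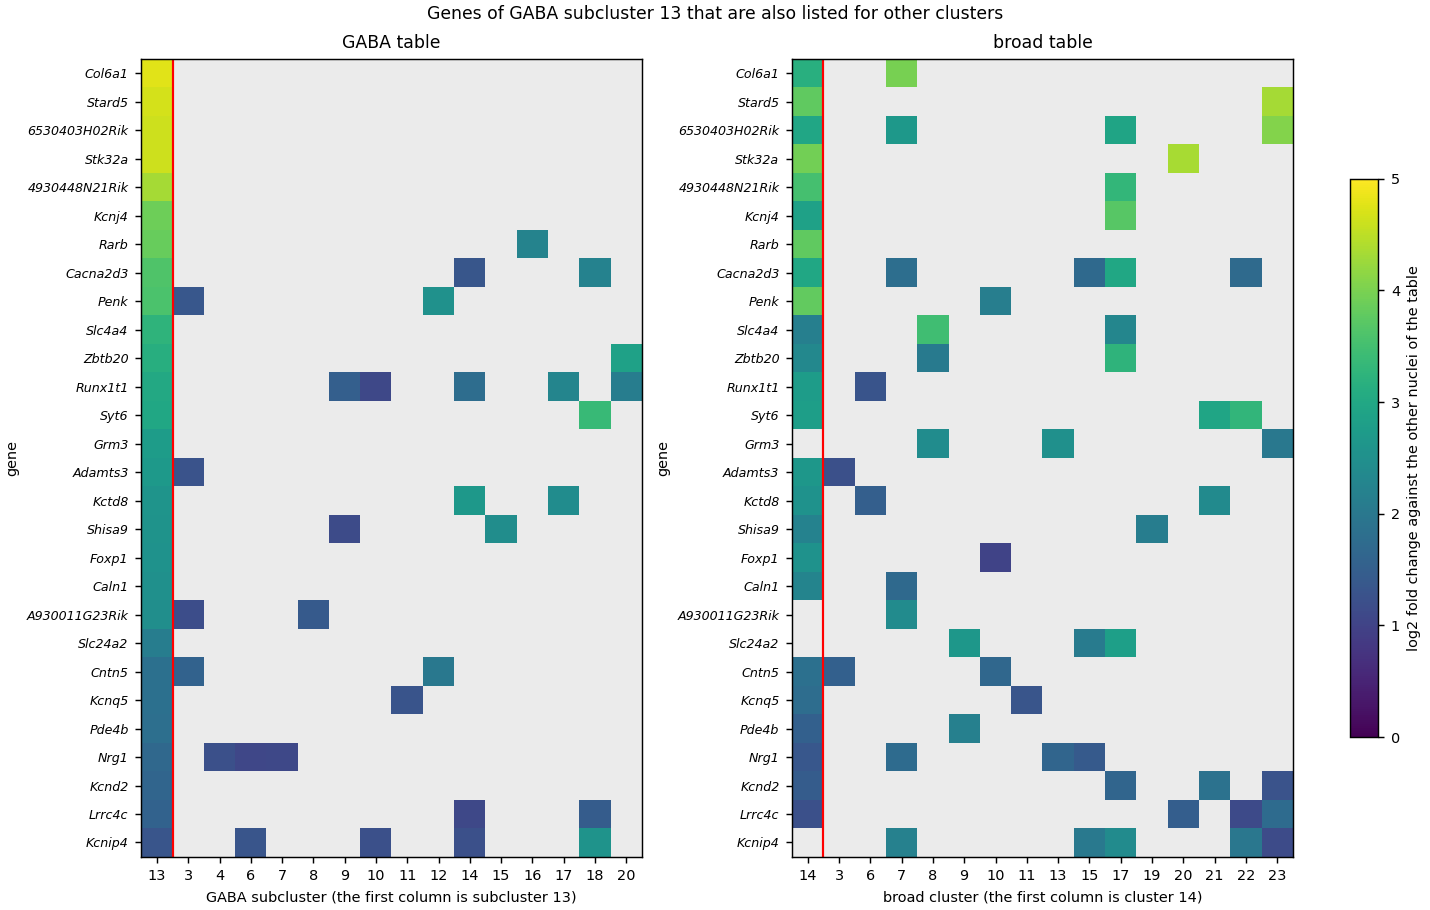
A set of 28 genes of GABA subcluster 13 that are also listed for another cluster, in the GABA table (left) and the broad table (right); colour gives the log2 fold change against the other nuclei of the table, the first column of each panel is subcluster 13 or broad cluster 14, and grey means not listed. Runx1t1 and Kcnip4 recur most in the GABA panel, and Kcnip4 in the broad panel.

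Broad cluster 14 listed 7 genes that subcluster 13 did not. Among them was the transcription factor gene Meis2, detected in 93.6% of its nuclei and 57.5% of the others (1.28) in the authors' deposited table, which within the GABA table was listed instead for subclusters 15 and 20. Serpina9, Asic4, Nexn, Neto1 and Grik2 had log2 fold changes of 7.90, 4.06, 3.81, 1.71 and 1.10 in the authors' deposited table, of which Serpina9 was detected in 2.4% of nuclei inside and is listed at 0.0% outside. Broad cluster 14 listed 11 of the 26 general medium spiny neuron genes, and 1 of the 11 lateral septal markers, Meis2, which is on both lists.

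Within the separate table of nuclei labelled Sst, 13 of the 50 genes were listed for a subcluster. The share of all GABA table genes listed there was not computed, so this count is a description only. Sst subcluster 0 listed 5 of them, Cntn5, Kcnip4, Adamts3, Penk and Ppp1r1b. Ppp1r1b was detected in 5.1% of Sst subcluster 0 nuclei and 1.9% of other Sst nuclei (1.46) in the authors' deposited table, well below its 35.8% in GABA subcluster 13. Rarb was listed for Sst subcluster 4 with 28.8% inside and 5.9% outside (2.50) in the authors' deposited table. Of the markers Adora2a, Drd1, Scn4b and Pdyn, 0 were listed for an Sst subcluster. Lists of genes for eccentric spiny neurons, striosomes, striatal matrix and immediate early genes had 0 members among the 50 genes of GABA subcluster 13. In that order, 4 of 8, 2 of 6, 1 of 6 and 3 of 16 were listed for some GABA subcluster. No other single one listed more than 1 from any of these lists, so the counts of 0 do not set subcluster 13 apart.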

How the data were processed

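Nuclear RNA of pooled lateral septum was sequenced in 3 droplet libraries. The submitters' processing notes name Seurat 4 and the build mm10. Aligner, filters on nuclei, handling of doublets and free RNA, clustering settings, the test and the pseudocount of the fold change: not given in the sources used here. Per the file headers, each row carries the log2 fold change of a gene in a cluster over the other nuclei of that table. Per the file headers, detection inside and outside is a fraction of nuclei, and it was multiplied to percent. The deposited p-values are the authors' own over nuclei and served only for row order and 1 alternative, since nuclei are not replicates. No values per library are held, so depth is unknown.

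The members and lists were chosen with earlier results of these data known. Every gene was counted and 1 member, with 1 gene of the lists, is not reported here by name; values are given for the 5 given markers, list members, the 10 of largest log2 fold change or detection difference, the 5 of lowest fold change, and genes shared with the likest subclusters. Other members named by role group fall outside that rule and were chosen after their values were seen. Role groups, promoter motifs and the ratio implied by detection were chosen after the values were seen. No clustering was done here. Shares of nuclei came from least squares with overall detection per gene and share per cluster as unknowns, checked on tables made with known shares. RefSeq promoters were matched by symbol for 36 of 50 genes, taking the start site farthest 5′. Python 3.11.15 with numpy 2.4.6, pandas 2.3.3 and matplotlib 3.10.9 was used.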

Additional observations from a re-analysis of the deposited data

How the results depend on the processing

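The share of GABA nuclei in subcluster 13 was 2.75% to 2.77% under the 4 other solutions tried, and that of all nuclei in broad cluster 14 was 2.05% or 2.06% under 3 of them and 1.97% when only genes of that cluster were used (26 genes, standard error 0.108 points). The parts of detected nuclei held by subcluster 13 changed by 0 to -0.3 points over these solutions. With a minimum log2 fold change of 2, 34 of 42 genes were listed for subcluster 13 alone, and with detection of at least 25%, 24 of 35. Each limit also removed listings of other subclusters, such as those of Adamts3 and A930011G23Rik, which raises these counts. No share over all rows was computed at these limits. The same limits left 36 of 42 and 30 of 35 genes shared with broad cluster 14. The count of 9 general medium spiny neuron genes was 7 among genes listed for subcluster 13 alone. A limit of 10% detection with an adjusted p under 0.001 was passed by all 50 genes. It therefore could not change the count of 9 and was no check of it. Subcluster 14 shared most genes, 5, with and without the detection limit; with it subcluster 18 shared 3 and subcluster 3 shared 1, so the second place depended on the limit. Of the 10 genes of largest log2 fold change, 0 were among the first 10 by detection difference and 8 by the log2 ratio of detection with 0.01 added. No paired analysis was possible because the libraries form 1 group and the tables hold no values per library, and for that reason no library could be left out. Depth is unknown, so no counting interval was given.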
